A study of Mus musculus with 3 samples.

Results

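Probes named by a genomic interval rather than by an accession or a gene were examined on arrays of mouse embryonic stem (ES) cells. They were all non-control probes whose target name is a chromosome, a start, an end and a strand letter, F or R, on mouse build mm9. There were 16194 such probes among 55681, which is 29.08%. They fell into 4610 named strands (called region strands here) of 3543 regions. Probes carried the letter F 8171 times, R 8010 times and no letter 13 times. A region strand had 1 to 10 probes with a median of 3, and 690 had a single probe. Regions were 62 to 7128487 bases long with a median of 7304, and 2101 regions (59.30%) overlapped another one, so region strands are not independent of each other. Agilent designs of this kind use such names for long intergenic noncoding RNA (lincRNA) candidates. The files themselves give only the interval and the letter, so neither the lincRNA label nor the strand that an F probe reads could be checked, and no gene, exon or neighbour was assigned to a region here.

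Each of 3 groups was read on 1 array: wildtype, Pcgf6KO and Pcgf6KO+ Pcgf6_flag. All were male ES cells grown in serum and leukaemia inhibitory factor on mouse embryonic fibroblasts inactivated with mitomycin C. The labels state that the Pcgf6KO cells were made with Cas9 and that lentivirus was used to establish the Pcgf6_flag cells; they do not say whether a line is 1 clone or whether cultures were pooled. A source field names muscle, while the cell type field names ES cells. With 1 array per group there is no replicate and no test: every difference below compares arrays, its only measure of error is the spread between probes of the same region strand, and 2-fold (1 on the log2 scale) is a size rule.

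Long intergenic noncoding RNAs are transcripts without a long reading frame that lie between protein-coding genes. They are often scarce, are often limited to few cell types, and some act on chromatin near or far from where they are made. Pcgf6 is the defining subunit of a variant Polycomb repressive complex that keeps germline genes silent in ES cells.

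The label check went against one array. A level is the log2 processed signal of a probe after subtraction of the 75th percentile over the array. On this scale the Pcgf6 probe stood at 1.87 in wildtype, at 0.84 in Pcgf6KO and at 0.42 in Pcgf6KO+ Pcgf6_flag, where re-expression is stated. It was thus lower there than in Pcgf6KO, and whether the probe lies in the sequence the virus carries is not given, so that sample is called the array labelled Pcgf6_flag throughout. It alone was on slide 2, the others on slide 1, so slide and group cannot be told apart for it. Its background was also higher: the SD of negative controls was 16.9, against 8.80 in wildtype and 9.09 in Pcgf6KO, and the lowest signal well above background was 103, against 52.7 and 53.4. The stem cell markers Pou5f1 (4.62, 4.42 and 4.36) and Nanog (4.95, 4.85 and 5.33) were bright on all arrays, and none of 10 stem cell markers passed 2-fold in any comparison. Of 22 fibroblast markers, 21, 19 and 15 were well above background on the arrays of wildtype, Pcgf6KO and the label Pcgf6_flag, and their summed signal, in units of the 75th percentile, was 108, 60.2 and 47.1. Pcgf6KO had 11 of the 19 read in both at least 2-fold lower than wildtype, and 0 higher, with a median difference of -1.12. The array labelled Pcgf6_flag had 11 of 15 lower than wildtype (median -3.41) and 8 of 15 lower than Pcgf6KO (median -1.21), and 0 higher in either. The part of fibroblast RNA in the results below was not tested, and in bulk RNA fewer cells of a type and less RNA per cell cannot be told apart.

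Probes for these regions were dimmer than the rest of the array. In wildtype 57.7% of them were well above background, against 68.4% of other probes, with 57.4% against 69.5% in Pcgf6KO and 52.1% against 64.2% on the array labelled Pcgf6_flag. Their median processed signal was 96.3, 97.0 and 139 on the 3 arrays, against 502, 597 and 592 for other probes. A region strand was kept where 2 or more probes were well above background on any array. That held for 2502 region strands (54.27%) in 1910 regions, 1231 of them F, 1269 R and 2 without a letter, read by 9014 probes. The remaining 2108 were counted and not compared. The level of a region strand is the mean of its kept probes, and a comparison used those with a probe well above background on both arrays. The lowest probe level well above background was -6.22 (wildtype), -6.33 (Pcgf6KO) and -5.49 on the array labelled Pcgf6_flag. A region strand level below these rests mainly on probes near background, and a difference from it has no exact size.

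The brightest kept region strands in wildtype stayed near the same level on all arrays. The F strand of chr13:98528250-98551125, read by 2 probes, stood at 5.32 (wildtype), 5.05 (Pcgf6KO) and 5.37 on the array labelled Pcgf6_flag. The F strand of chrX:98979320-98997145 stood at 5.32, 5.00 and 5.38, and the R strand of chr2:152172745-152184745 at 5.26, 5.12 and 5.36. None of the 6 brightest differed by 2-fold between any 2 arrays; the others were the F strands of chrX:33750475-33770425, chr7:108209996-108216032 and chr4:13369325-13456750.

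In Pcgf6KO against wildtype, more region strands were lower than higher, whereas other targets leaned the other way. Of 2421 region strands compared, 155 (6.40%) were at least 2-fold lower in Pcgf6KO and 98 (4.05%) at least 2-fold higher. Other targets with 2 or more probes, summarised in the same way, were lower in 91 of 4034 (2.26%) and higher in 205 (5.08%). Over both kinds together 3.81% were lower and 4.69% higher. The median difference was -0.12 in region strands and 0.00 in other targets, and 1508 region strands lay below 0 against 913 above. Over the 11 alternatives that use other levels or members, the median of the region strands stayed below 0, between -0.16 and -0.08. Against wildtype, the array labelled Pcgf6_flag had more region strands higher than lower: 280 of 2324 (12.0%) were higher and 89 (3.83%) lower, with 3.35% and 3.93% of 3946 other targets and 6.57% and 3.89% of both kinds together. Against Pcgf6KO the excess was larger: 365 of 2323 (15.7%) were higher and 98 (4.22%) lower. Other targets were higher in 3.27% and lower in 7.57% of 3948, and both kinds together in 7.88% and 6.33%. This lean of other targets depended on the probe filter. With 1 or more probes, 7.75% of 20662 other targets were higher and 7.12% lower, against 19.8% and 3.56% of 3119 region strands. Against wildtype, that filter gave 7.35% of 20569 other targets higher and 4.28% lower, so they leaned higher there too. Region strands gave 16.35% and 3.19% of 3107. These comparisons share arrays, so they are not independent of each other.

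**Figure D1:**
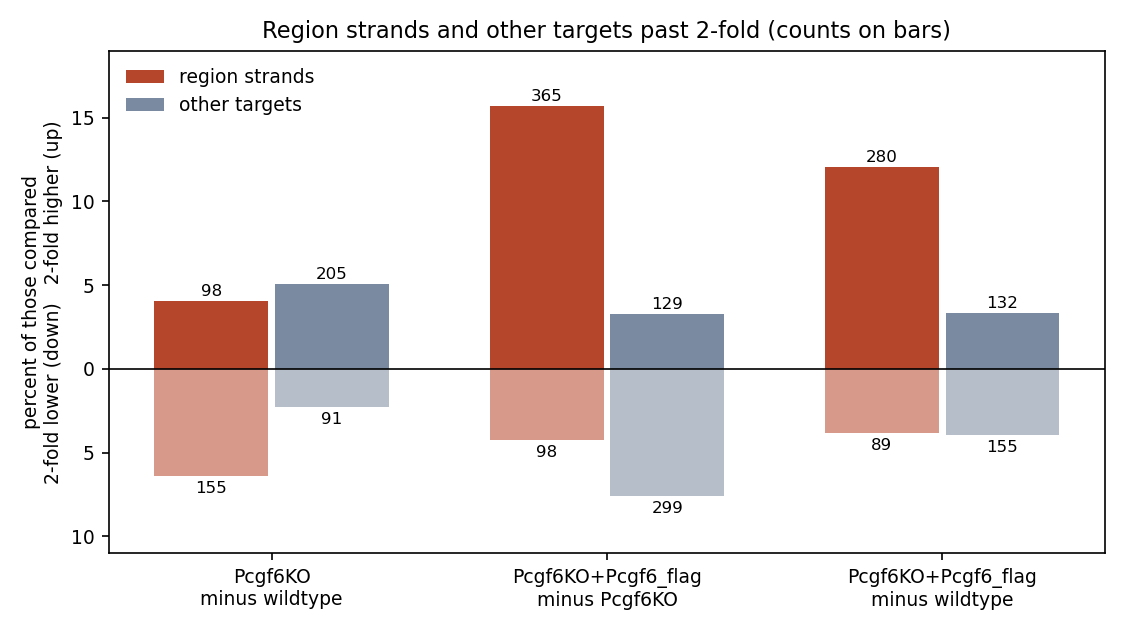
Percent of region strands (red) and other targets (grey) at least 2-fold higher (upward) or lower (downward) in each comparison of 2 arrays, with the number on each bar. Region strands lean lower in Pcgf6KO against wildtype (155 lower, 98 higher) and higher on the array labelled Pcgf6_flag (365 and 280 higher). Other targets, shown with 2 or more probes, lean the other way in the first 2 comparisons. With 1 or more probes they did not in the second (7.75% higher, 7.12% lower), and they leaned higher in the third (7.35% higher, 4.28% lower).

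Among region strands at or above the median level, the lowest in Pcgf6KO against wildtype were the strands of chr6:52046805-52072744. On its R strand, 9 probes averaged -0.35 (wildtype), -3.43 (Pcgf6KO) and -3.07 on the array labelled Pcgf6_flag. The difference between Pcgf6KO and wildtype was -3.08, with single probes from -3.37 to -2.74. On its F strand 6 probes averaged -0.01, -2.55 and -2.48, a difference of -2.53 with probes from -2.76 to -2.33. Both strands were high in wildtype alone, and the array labelled Pcgf6_flag differed from Pcgf6KO by only 0.36 and 0.06.

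Several others were low in Pcgf6KO and stayed more than 2-fold below wildtype on the array labelled Pcgf6_flag. At chr8:37582187-37621987 the R strand stood at -2.21, -4.48 and -3.93 and the F strand at -4.48, -6.87 and -5.97, the order of arrays being wildtype, Pcgf6KO and the label Pcgf6_flag here and below. On R, chr14:28218945-28241903 stood at -1.23, -3.50 and -2.50. On the same letter, chr5:23363666-23371611 stood at -1.92, -3.95 and -3.16. With 5 probes, the R strand of chr6:12062275-12075800 stood at -2.40, -4.0 and -3.93. Chosen after its values were seen, chr7:91558475-91733625 on F stood at -2.0 in wildtype with all 5 probes well above background, and 1 of these probes was so on each other array. In each of these, wildtype was the highest of the 3 arrays.

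A further set was low in Pcgf6KO only. On chromosome 13 the F strand of chr13:98281158-98285757 stood at -2.53, -4.51 and -1.13. It was 1.98 lower in Pcgf6KO than in wildtype on the log2 scale and 3.38 higher on the array labelled Pcgf6_flag than in Pcgf6KO, with its 3 probes between 3.33 and 3.41. The neighbouring chr13:98270713-98272269, F strand, stood at 0.09, -1.89 and 0.64. The F strand of chr15:102100964-102104552 stood at -1.95, -4.11 and -2.37. At chr2:154235540-154248551 both strands had this course, with -0.85, -2.80 and -1.17 on F and -0.32, -2.30 and -0.86 on R, from 5 probes each. The R strands of chr19:38392796-38398771 (-1.23, -2.83 and -1.18) and chr14:76912477-76931702 (-1.51, -3.13 and -1.56) followed it too. In these members, other than chr13:98281158-98285757, wildtype and the array labelled Pcgf6_flag differed by less than 2-fold.

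Counted over all region strands read on the 3 arrays, Pcgf6KO was at least 2-fold below both other arrays in 55 of 2304 (2.39%) and above both in 38 (1.65%). Other targets were below both in 0.482% and above both in 3.12%, and over both kinds the shares were 1.18% and 2.58%. The balance among region strands did not hold under every setting: the counts below and above were 45 and 44 after quantile normalization, 16 and 14 with normexp background correction, 14 and 14 where every probe had to pass, and 8 and 10 at 3-fold.

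The region strands named here as higher in Pcgf6KO were of the same 2 kinds. These kinds do not cover all: of 82 that were higher and read on the 3 arrays, Pcgf6KO was 2-fold above both others in 38. Wildtype was 2-fold below both others in 22. The clearest that was high in Pcgf6KO alone was chr6:57583950-57624216, where the F strand stood at -3.97, -1.56 and -4.01 and the R strand at -5.24, -2.93 and -5.72. Its F strand difference between Pcgf6KO and wildtype was 2.41 (probes 2.38 and 2.45), and its R strand difference 2.31 (4 probes from 2.10 to 2.55). The R strand of chr15:3230734-3251196 stood at -3.91, -1.59 and -3.68, with 3 probes higher by 2.05 to 2.47 in Pcgf6KO. With 5 probes, the R strand of chr12:16833551-16901804 stood at -2.50, -0.95 and -2.75. The F strand of chrX:98989930-98994344 stood at -1.55, 0.20 and -1.75; it lies inside the bright region chrX:98979320-98997145, whose 3 probes did not show this course. At chr13:62734450-62785325 only the F strand had it, with -0.62, 0.84 and -0.27 from 5 probes, while 5 probes of the R strand gave -1.02, -1.30 and -1.48.

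The other kind stayed high on the array labelled Pcgf6_flag. At chr15:96984422-97000322 the F strand stood at -0.02, 2.12 and 1.95 and the R strand at -4.64, -2.39 and -1.98. The F strand was 2.14 higher in Pcgf6KO than in wildtype (4 probes from 1.69 to 2.64) and the R strand 2.25 higher (5 probes from 1.96 to 2.75). At chr8:34646787-34680312 the levels were -4.61, -2.61 and -3.34 on F and -5.22, -3.70 and -4.17 on R. Wildtype was thus the lowest array on both strands of both regions.

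**Figure D2:**
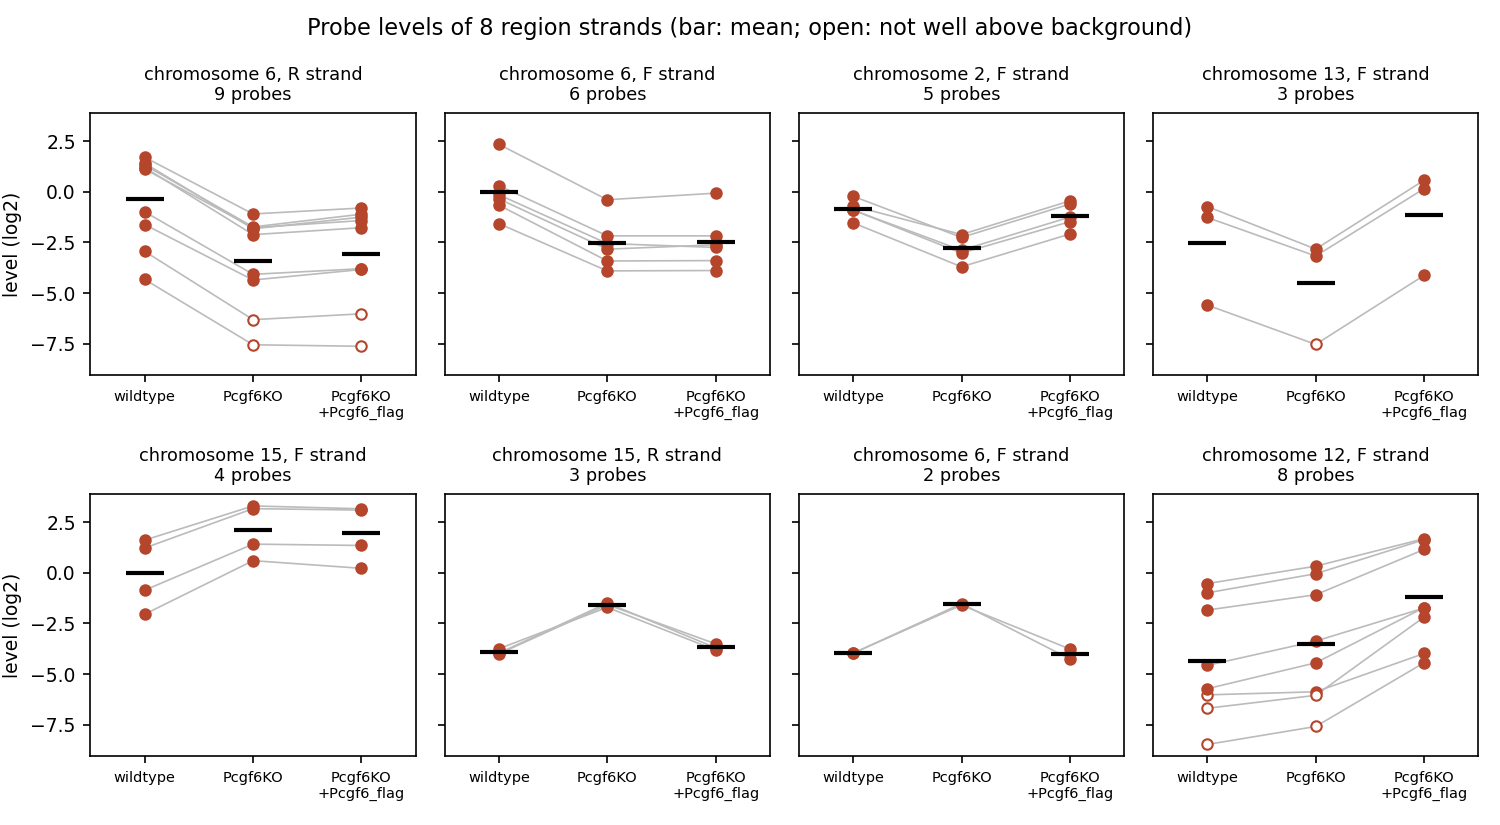
Levels (log2, relative to each array's 75th percentile) of every kept probe of 8 region strands on the 3 arrays; grey lines join a probe, black bars are means and open circles are probes not well above background. The chromosome 6 R strand and F strand in the first 2 panels are high in wildtype only (means -0.35 and -0.01), whereas the last panel, chromosome 12, is highest on the array labelled Pcgf6_flag (mean -1.20).

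Some members were set apart on the array labelled Pcgf6_flag. The F strand of chr12:111287772-111333890 stood at -4.36, -3.52 and -1.20 over 8 probes, of which 5, 6 and 8 were well above background. Its R strand stood at -3.64, -3.18 and -1.63. The R strand of chrX:138967807-138968413 stood at -2.59, -1.85 and 0.16, and the F strand of chr11:93994795-94017045 at -2.27, -2.77 and -0.29. In the other direction the R strand of chr12:82457625-82476325 stood at 0.37, 1.25 and -1.36, 2.61 lower than in Pcgf6KO over 3 probes that ranged from -3.14 to -1.95. Likewise, the R strand of chr8:48480224-48480698 stood at -1.48, -1.45 and -3.00. In all, this array was at least 2-fold above both others in 201 of 2304 region strands (8.72%) and below both in 35 (1.52%). Other targets with 2 or more probes gave 64 and 99 of 3941, and both kinds together 4.24% and 2.15%. Wildtype was above both in 29 region strands (1.26%) and below both in 22 (0.95%), against 1.02% and 0.82% over both kinds.

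The excess of higher region strands on the array labelled Pcgf6_flag was found at every level and was largest among dim ones. Against Pcgf6KO, 22.5% of region strands with a mean level below -4 were at least 2-fold higher, then 15% between -4 and -2, 10.6% between -2 and 0, and 2.47% above 0. Other targets with 2 or more probes were higher in 13.5%, 5.4%, 3.6% and 0.54% at the same levels. The median difference of the region strands was 0.39, 0.31, 0.22 and 0.19 from the dimmest to the brightest, against -0.13, -0.15, -0.06 and 0.03 for these other targets. Over all levels the median of other targets was -0.011 with 2 or more probes and 0.063 with 1 or more. Region strands gave 0.302 and 0.375. Targets with 1 or more probes were not split by level. The part of this array's higher background in these values was not tested. Against wildtype the medians were 0.26, 0.10, -0.01 and 0.01, near 0 in the 2 brightest classes. In that comparison the median over all region strands was 0.10 as scaled here, -0.03 scaled to the array median and 0.01 after quantile normalization; the median of other targets moved from -0.02 to -0.15 under the array median. Of the region strands called there, 75.9% were higher as scaled here, 64.1% and 63.2% under those scalings.

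For Pcgf6KO against wildtype, both arrays of slide 1, the medians were -0.07, -0.13, -0.15 and -0.15 from the dimmest to the brightest region strands. Other targets gave 0.27, 0.11, 0.03 and -0.04. The share at least 2-fold lower was 7.08%, 7.07%, 5.96% and 2.83% in region strands, against 7.94%, 4.23%, 2.22% and 0.32%. Below a level of -4 the 2 kinds therefore had similar shares of lower members, and they differed in the share that was higher: 6.59% of region strands and 21.3% of other targets.

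**Figure D3:**
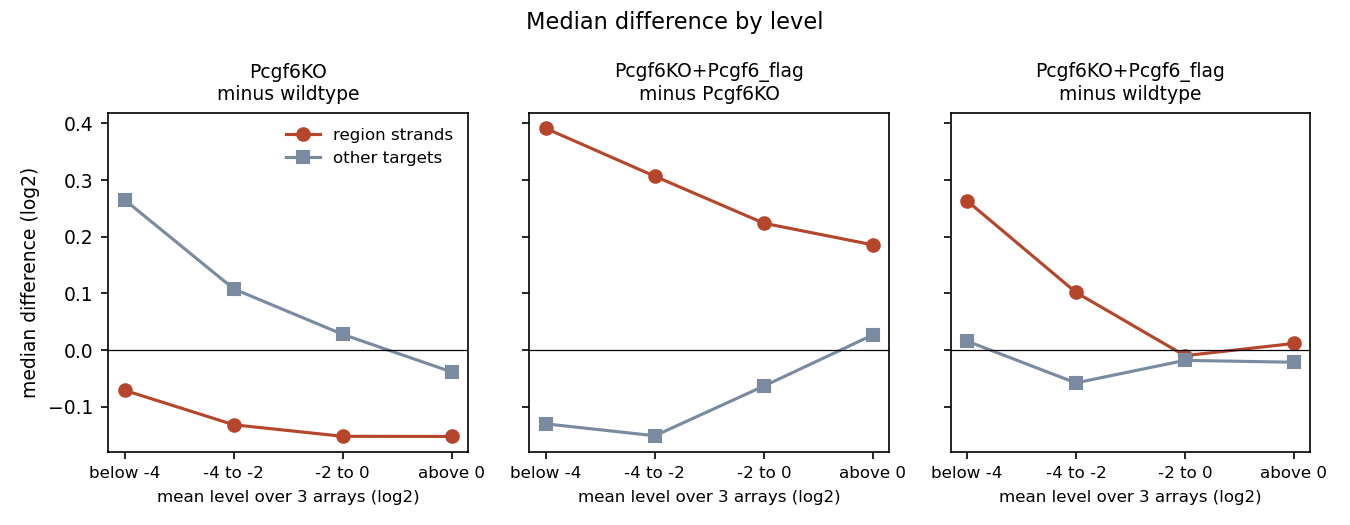
Median log2 difference of region strands (red circles) and other targets (grey squares) in 4 classes of mean level over the 3 arrays, for each comparison. Both kinds are shown with 2 or more probes. Region strands lie below other targets in Pcgf6KO against wildtype (-0.07 against 0.27 in the dimmest class) and above them on the array labelled Pcgf6_flag against Pcgf6KO (0.39 against -0.13).

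Where no probe of a region strand was well above background on 1 of 2 arrays, only a bound is given. It sets the array with signal against the measured level of the other array or, if higher, against the lowest level counted there as well above background. A bound was kept only where the array with signal stayed the higher. None was given where neither array had a probe well above background. Of 52 such bounds between Pcgf6KO and wildtype, 5 passed 2-fold higher and 10 lower in Pcgf6KO; other targets had 8 and 12 of 39, and both kinds together 13 and 22 of 91. The F strand of chr13:15947521-15999246 was read by all 5 probes in wildtype, at -2.70, and by none on the other arrays, where the measured levels were -8.18 and -7.21. Against wildtype it was at least 12.35-fold lower in Pcgf6KO. For the array labelled Pcgf6_flag the bound was at least 6.79-fold lower. The R strand of this region went the other way and was at least 2-fold higher on that array than in wildtype. Similarly, chr4:88745770-88774130 on R was read by 3 of 3 probes in wildtype only, with bounds of at least 7.0-fold lower in Pcgf6KO and at least 3.90-fold lower for the label Pcgf6_flag. Conversely, chr10:119960546-119979696 on R was at least 2.83-fold higher in Pcgf6KO than in wildtype and the F strand of chr9:111214181-111260465 at least 2.48-fold. Of 76 bounds between the array labelled Pcgf6_flag and Pcgf6KO, 16 passed 2-fold higher and 13 lower on the former, against 3 and 25 of 87 in other targets and 19 and 38 of 163 over both kinds. The R strand of chr6:149232359-149235295 was at least 6.53-fold higher there than in Pcgf6KO, and the F strand of chr13:23487906-23488198 was at least 6.54-fold lower.

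Probes of the same region strand shared a sign more often where the difference was large. With 2 or more probes read on both arrays, all probes had one sign in 1326 of 2136 region strands between Pcgf6KO and wildtype. It was 182 of 183 among those past 2-fold, where a large mean itself favours one sign, and 1144 of 1953 (58.6%) among the rest. Between the array labelled Pcgf6_flag and Pcgf6KO it was 307 of 326 and 987 of 1610 (61.3%), and against wildtype 234 of 245 and 908 of 1683 (54.0%). The first 2 probes of a region strand correlated with a Pearson r of 0.75 (2136 region strands), 0.60 (1936) and 0.56 (1928), described over region strands that share arrays and can overlap. Their median absolute gap was 0.20, 0.31 and 0.31. Spots of the same probe repeated on 1 array and well above background had a median SD of log2 signal of 0.058, 0.063 and 0.066. The 2 measures are unlike, since the gap is between differences of arrays and the repeated spots were not matched for level.

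The probes of the F and R strands of a region were often unequal in level. A strand counted as well above background on an array where 2 or more of its probes were, so a strand not counted can still have 1 such probe. Of 878 regions with 2 or more designed probes on each strand, both strands were well above background in 534 in wildtype. It was F alone in 70, R alone in 114 and neither in 160. The counts were 525, 76, 118 and 159 in Pcgf6KO and 485, 72, 123 and 198 on the array labelled Pcgf6_flag, so R alone was the more frequent on each. For the next count, the level of a strand was the mean over all its probes, including those not well above background. A region entered if either strand was kept, so some gaps involve a strand near background and have no exact size. The strands differed at least 4-fold in 260 of 860 regions in wildtype (30.2%), in 249 in Pcgf6KO and in 219 on the array labelled Pcgf6_flag. A level also depends on each probe's own response to its target. In wildtype the share was 16.74% with normexp background correction and 18.92% with only probes well above background on all arrays. The widest gap was at chr17:5795893-5835243, where F stood at 4.25, 3.90 and 4.28 and R at -4.27, -4.01 and -3.55. At chr13:12792150-12869825 the order was reversed, with R at 2.03, 1.87 and 2.64 and F at -4.60, -4.62 and -3.49. At chr8:91569369-91594119 the strands were level, at -1.76 (F, 7 probes) and -1.77 (R, 10 probes) in wildtype.

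Differences between arrays mostly had the same sign on both strands. A lean of all region strands to 1 side itself raises the share of regions that do, by an amount not tested. In Pcgf6KO against wildtype 1508 of 2421 region strands lay below 0. On the array labelled Pcgf6_flag 1590 of 2323 lay above 0 against Pcgf6KO and 1329 of 2324 against wildtype. In Pcgf6KO against wildtype, 573 regions were compared on both strands; the sign was the same in 442, and r over regions was 0.70. Both strands were at least 2-fold lower in 25 and higher in 8, and 1 strand alone passed in 40, with the other strand of the same sign in 36. The only region with opposite calls was chrX:102567595-102589870, chosen after its values were seen, where F stood at -4.42, -5.55 and -4.60 over 2 probes and R at -4.41, -3.13 and -4.33 over 5. Against Pcgf6KO, the array labelled Pcgf6_flag had both strands higher in 50 of 554 regions, lower in 3 and opposite in 1, with r of 0.63. The opposite one, also chosen after its values were seen, was chrX:75813213-75829323, with F at -5.99, -5.91 and -4.34 and R at -5.63, -4.48 and -5.89. Against wildtype the counts were 29, 9 and 0 of 552, with r of 0.62.

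**Figure D4:**
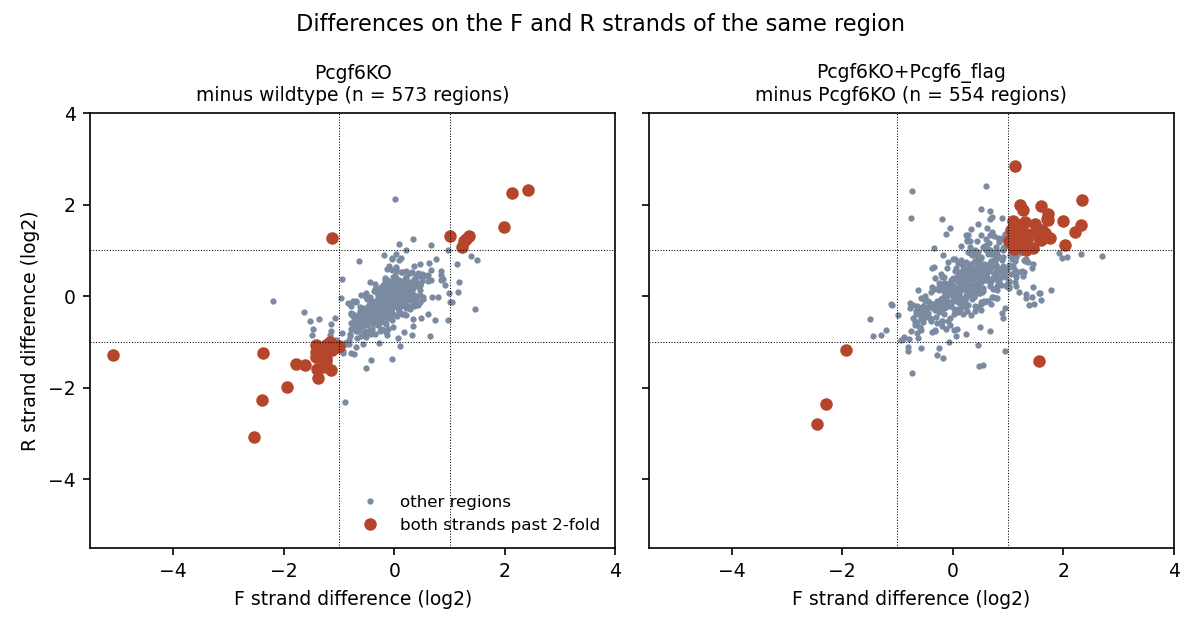
Log2 difference on the R strand against that on the F strand for regions compared on both, in Pcgf6KO against wildtype (573 regions) and the array labelled Pcgf6_flag against Pcgf6KO (554 regions); dotted lines mark 2-fold and red points pass it on both strands. Red points lie mostly lower left in the first panel (25 lower, 8 higher) and upper right in the second (50 higher, 3 lower).

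Most region strands that passed 2-fold had no neighbour that passed it in the same direction. Non-overlapping regions within 500 kb were counted as neighbours. In Pcgf6KO against wildtype, 21 of 98 higher region strands (21.4%) had a neighbour called higher, against 90 of 2323 (3.87%) of those not called higher. For the lower ones it was 33 of 155 (21.3%) against 10.4%. On the array labelled Pcgf6_flag against Pcgf6KO the lower ones had such a neighbour in 21.4% against 5.03%, while the higher ones had it in 22.7% against 21.8%. Against wildtype the shares on that array were 20.4% against 17.2% for the higher ones and 11.2% against 6.13% for the lower ones. The groups named next were chosen after their values were seen.

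The largest group lower in Pcgf6KO was on chromosome 13, between 98038568 and 98603323, with 7 region strands of 6 regions, some overlapping, and differences from -1.98 to -1.16. It holds chr13:98281158-98285757 and chr13:98270713-98272269, described above. Not all of this interval was lower. The chromosome 13 F strand named above among the brightest in wildtype also lies in it and did not pass 2-fold. At chr13:98571741-98603323 the levels were -3.42, -4.66 and -2.32 on F and -3.51, -4.94 and -2.83 on R. The array labelled Pcgf6_flag was nearer to Pcgf6KO than to wildtype in 3 of the 7: chr13:98038568-98068079 on F (-4.90, -6.06 and -5.98), chr13:98062189-98066613 on F (-1.64, -3.15 and -2.53) and chr13:98221098-98480773 on R (-2.13, -3.77 and -3.12). In the first, 2 of 6 probes were well above background in Pcgf6KO and 2 on the array labelled Pcgf6_flag, so the order of these arrays cannot be read. On chromosome 10, between 69669025 and 69844784, 4 F strands were lower in Pcgf6KO and higher again on the array labelled Pcgf6_flag. The brightest of them, chr10:69844350-69844784, stood at -0.70, -1.91 and -0.20 over 3 probes, and the faintest, chr10:69669025-69686275, at -4.99, -6.47 and -4.55. In Pcgf6KO 1 of the 4 probes of the faintest was well above background. In chr10:69831647-69831983 and chr10:69842010-69842465 it was 1 of 2 there.

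On chromosome 1, 4 region strands between 139713316 and 139913366 were higher in Pcgf6KO than in wildtype, the longest region containing the other 3. They were dim and were read mainly in Pcgf6KO: the F strand of chr1:139795171-139796306 stood at -2.92 there with 3 of 3 probes well above background, against 1 of 3 on each other array. On chromosome X, 3 F strands between 123295327 and 123307974 stood at -5.62 to -4.90 in wildtype and -3.91 to -3.22 in Pcgf6KO. On the array labelled Pcgf6_flag 2 of these 3 had no probe well above background, and chrX:123306246-123307974 was at least 4.72-fold lower there than in Pcgf6KO. On chromosome 12, between 110738120 and 111665403, 7 region strands of 4 regions were higher on the array labelled Pcgf6_flag than in Pcgf6KO. Wildtype differed among them: at chr12:110738120-110769295 on R the levels were -2.02, -3.81 and -2.38, whereas at chr12:111617728-111665403 on R they were -4.0, -4.49 and -3.22.

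**Figure D5:**
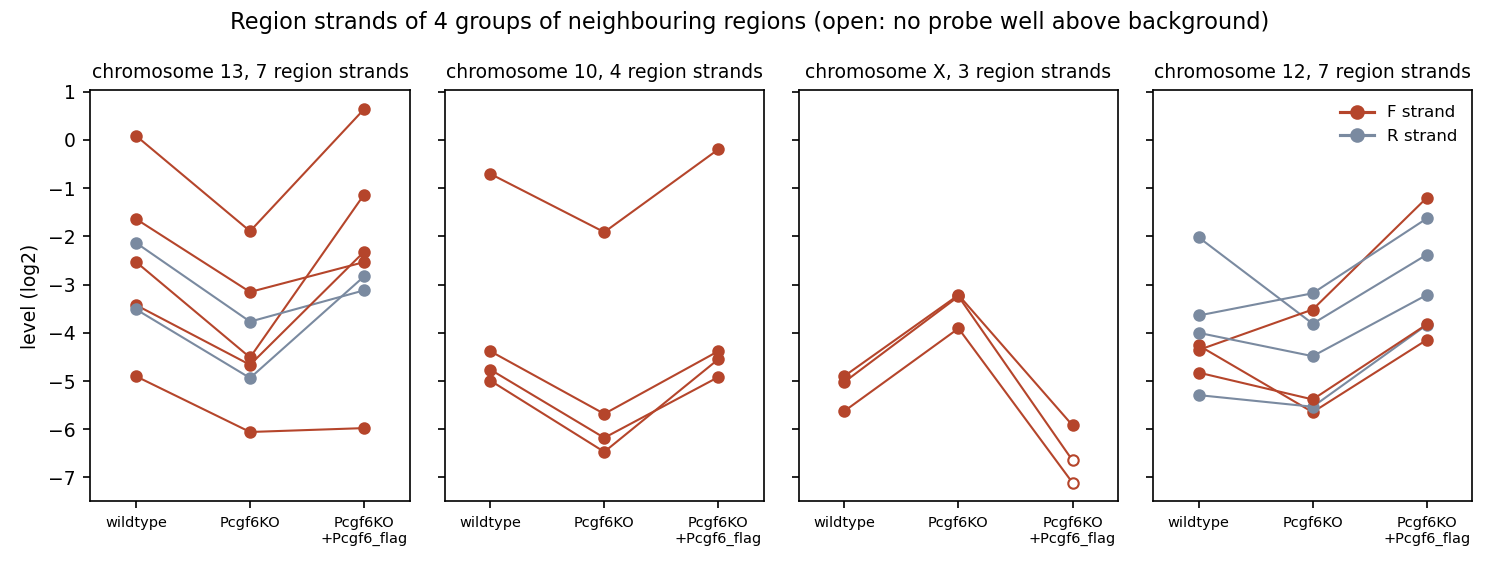
Levels (log2) on the 3 arrays of the region strands in 4 groups of neighbouring regions, F in red and R in grey, 1 line per region strand; open circles have no probe well above background. The 7 of chromosome 13 and the 4 of chromosome 10 have their lowest level in Pcgf6KO, and the 3 of chromosome X are highest in Pcgf6KO. For the faintest of chromosome 13 the order of Pcgf6KO (-6.06) and the array labelled Pcgf6_flag (-5.98) cannot be read. On each of them 2 of its 6 probes were well above background.

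On chromosome X more region strands were higher than lower in Pcgf6KO against wildtype. Of 92 X-linked region strands 12 (13%) were higher and 1 (1.09%) lower, against 86 (3.69%) and 154 (6.61%) of 2329 on autosomes. The 12 are not separate loci: 3 lie between 123295327 and 123307974, and 2 overlap between 50400250 and 50410825. Both strands of chrX:165792277-165807952 are also among them. Other targets were not split by chromosome, so this balance cannot be called particular to region strands. Their median difference was -0.05, against -0.12 on autosomes. Besides those named above, chrX:165792277-165807952 was higher on both strands, with F at -2.61, -1.25 and -1.88 over 5 probes and R at -4.21, -2.91 and -3.82. Between Pcgf6KO and the array labelled Pcgf6_flag, 5 of 88 X-linked region strands were higher on the latter and 7 lower, while autosomes had 360 higher and 91 lower of 2235. The shares higher were 5.68% on chromosome X and 16.1% on autosomes.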

How the data were processed

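Total RNA from 3 cell lines was labelled with Cy3 after linear amplification, per the labels' protocols, and read on 1-colour Agilent arrays. Per the file headers, the deposited processed intensity of each spot is linear and background-subtracted, made with Agilent Feature Extraction 11.5.1.1 on an mm9 design; the submitters' processing notes name version 10.7. The series' value table held the same processed signal for 55249 of 55249 single-spot probes per array within a relative tolerance of 1e-06, with column medians of 243, 273 and 313. Its scale is thus linear, it was not scaled or centred, and it holds no ratios.

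Control spots and outlier spots (141, 158 and 192) were left out, including 10 region probes, and 0 spots were saturated. Spots of a probe were averaged, log2 was taken and the array's 75th percentile subtracted. Region strands needed 2 or more probes well above background on any array and were averaged over them. Arrays limit the precision, at 1 per group, so no test was run and 2-fold was the rule. Alternatives were other scalings, quantile normalization, normexp in limma 3.58.1 (offset 50, on median spot signals in place of the planned means), the value table, other summaries over probes and filters, and 1.5-fold and 3-fold. Python 3.11.15, numpy 2.4.6, pandas 2.3.3 and R 4.3.3 were used.

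The members, lists and rules were chosen with earlier results of these data known. For each comparison the text names the 8 highest and 8 lowest region strands or some of them (2 or more probes on both arrays, all of one sign, mean level at or above the median), and up to 4 bounds a direction. It also takes the 6 furthest above and below both other arrays and the 6 brightest, with the 4 widest and 4 smallest strand gaps. The other strand is given for some of these regions and not for all where it was kept. Regions on chromosome 18 (85 kept region strands) were counted and not named.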

Additional observations from a re-analysis of the deposited data

How the results depend on the processing

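No paired analysis was possible because each group has 1 array. The counts stayed within 1.5 times under scaling to the median or to the 75th percentile of measured probes, quantile normalization, the value table, the median over probes, the brightest probe and outlier spots kept. The following values are in the order higher and lower in Pcgf6KO against wildtype, higher and lower on the array labelled Pcgf6_flag against Pcgf6KO, the same against wildtype, and Pcgf6KO above and below both. Normexp gave 31, 63, 155, 35, 108, 29, 14 and 16. Requiring every probe to pass gave 44, 66, 131, 37, 102, 35, 14 and 14. A 1.5-fold rule gave 204, 381, 744, 236, 565, 265, 95 and 182, and a 3-fold rule 33, 36, 91, 28, 88, 16, 10 and 8. Probes well above background on all arrays gave 43, 100, 249, 50, 179, 52, 24 and 33. The region strands higher on the array labelled Pcgf6_flag, against Pcgf6KO and against wildtype, numbered 791 and 665 without a filter on dim probes, 220 and 153 with 3 or more probes, and 616 and 508 with 1 or more. The share of regions whose strands differed at least 4-fold in wildtype was 16.74% with normexp, 34.77% with the median over probes, 38.84% with the brightest probe and 18.92% with probes above background on all arrays, against 30.23%. Named differences (Pcgf6 included) were followed over the alternatives that leave the rule for a call unchanged, the value table among them. Of 3285 values, 304 moved by more than the spread between probes or repeated spots, and 1 reversed. The R strand of chr2:94082835-94101939, array labelled Pcgf6_flag minus wildtype, was -1.29 and became 0.74 with the brightest probe. A region strand not kept under an alternative gave no value there, and Pcgf6 gave none under other probe summaries and filters. The cause of these changes was not tested. Over the 15 alternatives, of which the value table gives equal values, 30.07 to 47.83% of the region strands called in Pcgf6KO against wildtype were higher, and 58.33 to 72.82% of other targets. On the array labelled Pcgf6_flag against Pcgf6KO the ranges were 70.18 to 85.51% of region strands and 21.68 to 52.10% of other targets. Against wildtype they were 63.19 to 84.61% and 34.01 to 63.17%. Depth limits the dim members, whose level lies near each array's lowest signal well above background.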

Other observations

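Region strands were also compared by the length of their region. In Pcgf6KO against wildtype, those of regions shorter than 5 kb were lower in 49 of 582 (8.42%) and higher in 30 (5.15%). Regions of 5 to 20 kb gave 59 of 978 (6.03%) and 33 (3.37%), and those of 20 kb or longer 47 of 861 (5.46%) and 35 (4.07%). On the array labelled Pcgf6_flag against Pcgf6KO the shares higher were 14.8%, 14.7% and 17.4%, so no length class lacked the excess of higher members. Chromosomes differed in balance: in Pcgf6KO against wildtype chromosome 2 had 19 of 183 lower and 4 higher, while chromosome 1 had 11 of 175 lower and 15 higher. These 2 chromosomes were chosen after their values were seen. The 15 include 4 overlapping region strands between 139713316 and 139913366 and 3 between 161969026 and 162006639. Other targets were not split by length or chromosome.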
